A study of Arabidopsis thaliana with 4 samples.

Results

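Calmodulin-like proteins are small calcium sensors whose EF-hands bind the calcium ions that enter the cytosol when a plant is bent, wounded or chewed. Calmodulin itself works in the same way, and both pass the signal on by binding kinases, transcription factors and other targets. The TCH genes of *Arabidopsis* were found as transcripts that accumulate within minutes of touch: TCH1 is the calmodulin gene CAM2, TCH2 is CML24, TCH3 is CML12 and TCH4 is XTH22, which encodes an enzyme that cuts and rejoins xyloglucan in the cell wall. Touch and wounding also raise jasmonate, and MYC2 is the basic helix-loop-helix transcription factor that turns on many jasmonate-responsive genes.

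The 8 genes described here are TCH3 (AT2G41100), CML23 (AT1G66400), TCH2 (AT5G37770), CML37 (AT5G42380), CML38 (AT1G76650), CML39 (AT1G76640), CML42 (AT4G20780) and TCH4 (AT5G57560), out of 27444 protein-coding genes on the nuclear chromosomes. They were chosen by name, with earlier results of these data in view, and a loop was counted for a gene when either of its anchors overlapped the interval from 1 kb upstream of the transcription start site to the transcription termination site in TAIR10. By this rule the 8 genes had 8 of the 15694 anchors and 53 of 36723 loops in wild-type Col-0. In *myc2* they had 38 of 32312 loops. Loops and tags of these genes are therefore given as a description, with no test.

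The loops come from H3K4me3 ChIA-PET, which ligates DNA ends held together in crosslinked chromatin carrying trimethylated lysine 4 of histone H3, a mark of active promoters, and reads each junction as a paired-end tag (PET). The material was the shoots of 2-week-old seedlings, either Col-0 or the mutant *myc2*. All plants were grown at 22 °C under 16 h of light and 8 h of darkness and were crosslinked with 1.5 mM EGS for 30 min and 1% formaldehyde for 10 min. The labels name no *myc2* allele and no touch, wounding or jasmonate treatment. The authors combined the 2 replicates of each genotype before loops were called, so that 1 list per genotype exists, no p-value between genotypes can be given, and every interval below is a 95% interval that covers counting error only. Differences between library preparations and between genotypes cannot be told apart.

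Depth differed between the lists. The loops of Col-0 held 745505 PETs, those of *myc2* 297390, and the smallest loop had 10 PETs in the Col-0 list and 5 in the other. Over the 24896 loops in both lists the PET ratio, *myc2* over Col-0, was 0.432. A loop that fell under 5 PETs in *myc2* is left out of this ratio, which can raise it. For the 2631 strong loops, defined by 40 or more PETs in Col-0, the PET ratio was 0.394. The tag ratio had a median of 0.775 over the 14505 anchors that reached 300 tags in Col-0. At the MYC2 gene itself the tags of the richest anchor numbered 3562 in Col-0 against 1423 in the mutant, a ratio of 0.399 (0.375 to 0.425). Of 6 shoot markers fixed for a check of the label 5 had an anchor, and of 6 root markers 0 had one, beside 17797 of all 27444 genes.

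Of the 8 genes 6 sit in tandem with a relative. CML23 lies 2719 bp from CAM4 on chromosome 1, TCH2 lies 4846 bp from CAM1 on chromosome 5, and TCH3 lies 482 bp from CAM2 on chromosome 2, each pair on the same strand with 0 protein-coding genes between. CML39 and CML38 are 883 bp apart on chromosome 1, and TCH4 and XTH25, another xyloglucan enzyme gene, are 565 bp apart on chromosome 5. The coding sequences of CML23 and TCH2 were identical at 81.2% of 473 aligned bases, those of CML38 and CML39 at 84.1% of 471, and those of CAM1 and CAM4 at 89.0% of 480. TCH3 and AT2G41090, the EF-hand gene 37 bp upstream of it, were identical at 81.4% of 575 aligned bases. The 575 bases were 59.0% of the longer sequence, against 97.3% for CML23 and TCH2. Gaps were not counted, and by the same measure the enzyme gene TCH4 ranged from 60.6% with TCH3 to 73.3% with CAM1. CML42 lies 8 bp from AT4G20770, a pentatricopeptide repeat gene and no relative, and no relative was paired with CML37.

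Upstream sequences are shown for TCH2 and CML23, the pair of relatives that each loop to a calmodulin gene, and for CML37, the gene with the largest difference in listed loops. Each is the 250 bases before the RefSeq start site in TAIR10.1, read on the strand of the gene, at chr5:14999620-14999869, chr1:24771394-24771643 and chr5:16943821-16944070, all on the minus strand. Capitals mark CGCGTT or its reverse complement AACGCG, a letter string bound by calmodulin-binding transcription activators, and CATGTG or its reverse complement CACATG, a variant of the G-box CACGTG that MYC2 binds.
TCH2: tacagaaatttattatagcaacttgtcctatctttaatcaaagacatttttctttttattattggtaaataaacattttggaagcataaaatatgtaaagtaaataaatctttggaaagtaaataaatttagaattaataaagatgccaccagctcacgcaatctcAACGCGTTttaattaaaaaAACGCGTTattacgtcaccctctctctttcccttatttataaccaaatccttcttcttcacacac
CML23: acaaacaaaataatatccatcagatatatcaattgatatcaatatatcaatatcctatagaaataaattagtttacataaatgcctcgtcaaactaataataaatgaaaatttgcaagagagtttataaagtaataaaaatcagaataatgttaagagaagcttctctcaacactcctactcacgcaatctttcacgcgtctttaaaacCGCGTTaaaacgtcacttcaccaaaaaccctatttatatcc
CML37: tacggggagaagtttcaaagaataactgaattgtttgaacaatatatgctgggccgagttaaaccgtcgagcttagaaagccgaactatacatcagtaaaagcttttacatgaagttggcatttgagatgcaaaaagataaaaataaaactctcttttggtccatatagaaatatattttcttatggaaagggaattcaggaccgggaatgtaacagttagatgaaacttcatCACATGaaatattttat
In TCH2 the 4 matches form 2 palindromes, each holding CGCGTT and AACGCG in overlap, and they begin at positions -84, -82, -65 and -63 relative to the start site. CML23 had 1 match, at -41. The string was thus in 2 of the 8 upstream sequences, and over 27443 genes 2.59% had it in the same 250 bases. The longest run of letters shared by the upstream sequences of TCH2 and CML23 was ctcacgcaatct, 12 bases, which began at -97 in TCH2 and at -71 in CML23. The G-box CACGTG was in 0 of the 8 upstream sequences, against 6.49% of all genes, and CATGTG was in that of CML37 only, at -17, against 11.1%. From 1000 bases before to 500 after the start site, CML37 alone of the 8 held a G-box, at position 108 within the gene, against 20.5% of all genes. It is shown in capitals in 30 bases at chr5:16943695-16943724 on the minus strand.
CML37 G-box: aaagaccaaaacCACGTGtccgcacatcgt
A match of letters is not a bound site, and MYC2 binding was not analysed here.

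Most anchors lay over the body of the gene rather than at the start site. The TCH2 anchor (chr5:14997863-14999739, 1877 bp) ran from -120 to 1756 relative to the start site and so covered the CGCGTT matches, and of its length 486 bp were coding sequence and 369 bp intron. The CML23 anchor (chr1:24770757-24771358, 602 bp) began 35 bp and the CML37 anchor (chr5:16942673-16943461, 789 bp) began 359 bp downstream of the start site, and both lay wholly in the single exon of the gene. The CML37 G-box lay outside its anchor. TCH3 had 2 anchors. Its promoter anchor (chr2:17135658-17137129, 1472 bp) reached from -1379 to 92, and its gene-body anchor (chr2:17138036-17139845, 1810 bp) reached from 999 to 2808 and held 975 bp of coding sequence.

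**Figure D1:**
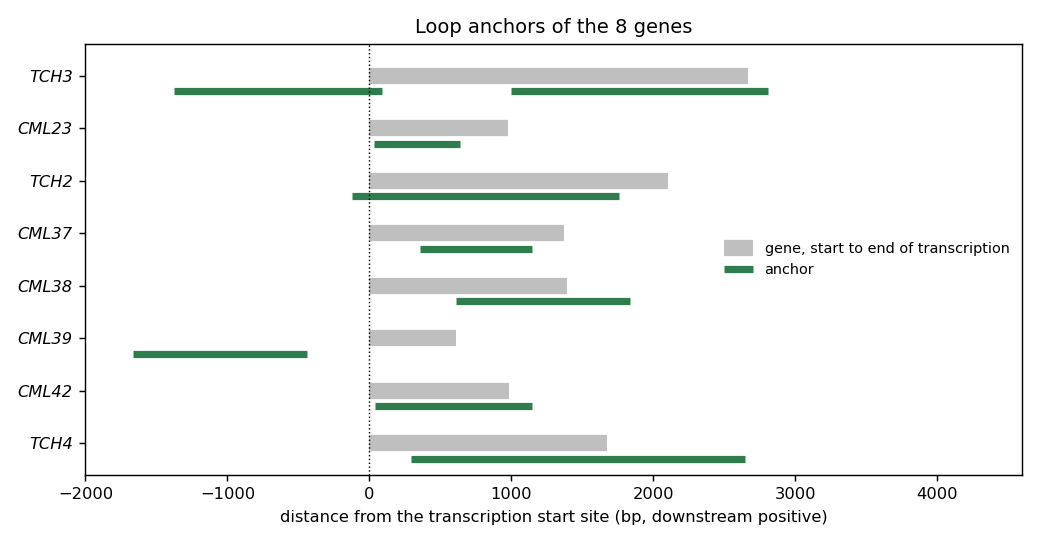
Loop anchors (green) and transcribed genes (grey) on a common axis of distance from the transcription start site in bp, with downstream positive. TCH2 and the promoter anchor of TCH3 are the only ones whose anchor spans the start site, and the anchor shared by CML38 and CML39 lies in the body of CML38 and upstream of CML39.

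Several anchors could not be given to 1 gene. The TCH3 promoter anchor also covered 1342 bp of AT2G41090. The TCH3 gene-body anchor also overlapped the interval of AT2G41105 by 1513 bp and that of CAM2, upstream of its start site, by 663 bp. The TCH4 anchor (chr5:23306036-23308386, 2351 bp) overlapped the counting interval of XTH25 by 1405 bp and that of TCH4 by 1381 bp. The CML42 anchor (chr4:11132927-11134032, 1106 bp) lay wholly in the interval of AT4G20770, mostly upstream of its start site, and by 938 bp in that of CML42. By largest overlap these anchors would go to XTH25 and AT4G20770, and the promoter anchor of TCH3 to AT2G41090. CML38 and CML39 shared a single anchor (chr1:28766303-28767529, 1227 bp). That anchor held 780 bp of the body of CML38 and 564 bp upstream of CML39, or 46.0% of its length, the smallest overlap that the rule accepted. Just outside the rule, the anchor of SPP lay 286 bp beyond the CML37 interval with 2455 tags in Col-0 against 1955 in *myc2*, and the anchor over CAM2 lay 465 bp beyond that of TCH3 with 4686 and 3819 tags.

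Tags in the anchor, which count H3K4me3-bound DNA whether looped or not, were lower in *myc2* than in Col-0 for 7 of the 8 anchors, as at most anchors. Col-0 had 4673 tags in the TCH4 anchor where *myc2* had 4108, and 3672 in the TCH2 anchor where *myc2* had 2984. These are among the richest anchors, at percentiles 98.9 and 96.2 of all anchors in Col-0. In the same order the TCH3 promoter anchor held 2269 and 1710 tags, and its gene-body anchor held 2488 and 2144. The CML37 anchor held 1291 and 1023, the CML42 anchor 928 and 670, and the CML23 anchor 499 and 390. CML23 was thus near the bottom, at percentile 6.97 in Col-0, and CML42 stood at percentile 23.3. Per kb of anchor the order in Col-0 ran from 829 tags at CML23 and 839 at CML42 through 1375 and 1541 at the TCH3 anchors and 1636 at CML37 to 1883 at CML38/CML39, 1956 at TCH2 and 1988 at TCH4, beside a median of 1608 over all anchors. The 2 lowest were within each other's counting error, and so were the 2 highest.

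The anchor shared by CML38 and CML39 was the exception. CML38 is a wound-induced calmodulin-like protein that enters RNA granules under low oxygen, and CML39 acts in seedling establishment. Their anchor had 2311 tags in Col-0 against 2487 in *myc2*, for a ratio of 1.08 (1.02 to 1.14), where the other 7 anchors had ratios from 0.722 to 0.879. Set against the median of all anchors the ratio was 1.39-fold (1.31 to 1.47), at percentile 99.96. It stayed under the 1.5-fold used as a call, which 0 of the 8 anchors passed in either direction. Over all anchors, 0.00689% passed it upward and 0.303% downward. With the call set at 25% above the median, 1 of the 8 anchors, that of CML38 and CML39, was higher in *myc2*, against 0.855% of all anchors, and 0 of 8 were 20% or more below it, against 3.32%. The TCH4 ratio was 1.13-fold (1.09 to 1.18) and that of the TCH3 gene-body anchor 1.11-fold (1.05 to 1.18) above the median, and the intervals of the other 5 anchors included the median. Whether other libraries would give the same ratio cannot be told from 1 list per genotype.

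**Figure D2:**
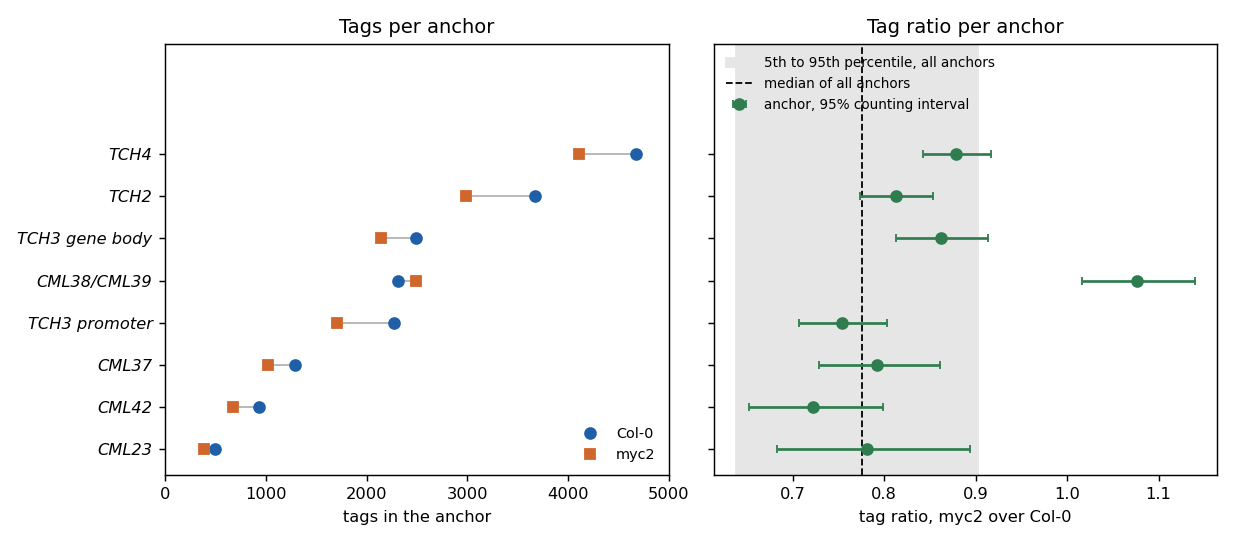
Left, tags in each of the 8 anchors in Col-0 (circles) and *myc2* (squares). Right, the tag ratio, *myc2* over Col-0, with its 95% counting interval, the median of all anchors (dashed) and their 5th to 95th percentiles (grey, 0.639 to 0.903). The CML38/CML39 anchor, at 1.08, is the only point outside the grey band.

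Of the 53 Col-0 loops of the 8 genes, 33 were also listed in *myc2* and 20 were not, which is 37.7% (25.9 to 51.2, Wilson) beside 32.2% of all Col-0 loops. Of the 38 *myc2* loops 33 were also listed in Col-0, or 86.8% (72.7 to 94.2), beside 77.0% of all, and 5 were not. The 8 genes had 981 PETs (921 to 1044) in Col-0 and 376 (339 to 416) in *myc2*. Over the 33 loops in both lists the PETs were 728 and 346, a ratio of 0.475 (0.417 to 0.541). Its interval holds the 0.432 of all shared loops but lies above the 0.394 of strong loops. When only shared loops with 20 or more PETs in Col-0 were kept, the ratio was 0.464 (0.393 to 0.547), and its interval holds both values. Neither value comes from loops chosen in this way. Over all 12738 shared loops of 20 or more PETs the median ratio of single loops was 0.385, which lies below the interval. That is a median and not a ratio of summed PETs. Of these 33 loops 3 had a ratio at least 1.5 times that of all shared loops, where 11.5% of all loops did, and 2 were lower by that factor, where 11.7% did. All loops of the 8 genes stayed within a chromosome and spanned 2.43 to 39.9 kb, with a median of 14.4 kb in Col-0.

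Whether a loop was listed in *myc2* went with its PETs in Col-0. Of the 16 loops of 10 to 11 PETs 12 were not listed in *myc2*, or 75.0% (50.5 to 89.8), beside 65.1% of all loops of this size. Of the 12 loops of 12 to 14 PETs 5 were not listed, beside 49.5%, and of the 8 loops of 15 to 19 PETs 0, beside 29.5%. Of the 9 loops of 20 to 24 PETs 3 were not listed, or 33.3% (12.1 to 64.6), beside 13.6%. The 5 loops of 25 to 39 PETs and the 3 of at least 40 were in both lists, where 3.51% and 0.114% of all such loops were not listed in *myc2*. The shares of all loops in the same PET classes, applied to the 53 loops, give 20.1 unlisted loops, beside the 20 observed.

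**Figure D3:**
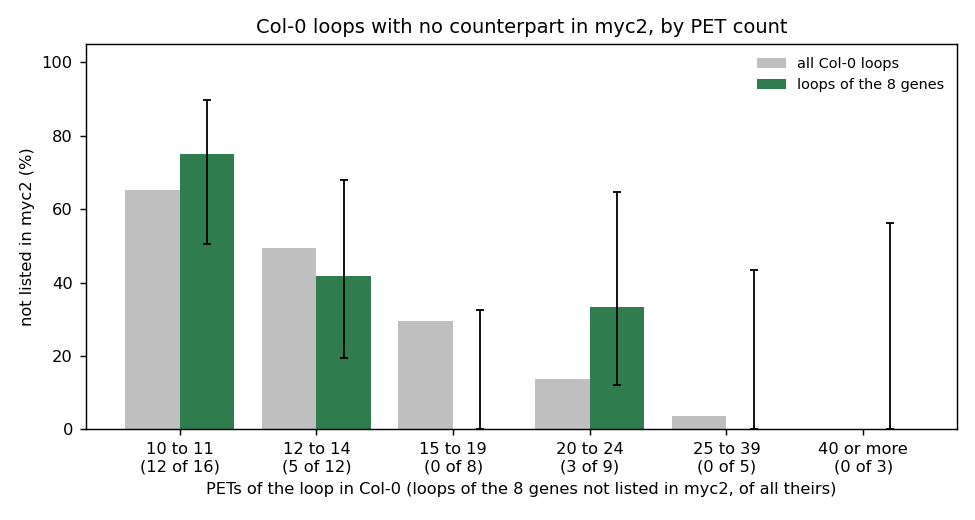
Percentage of Col-0 loops with no counterpart in *myc2* by the loop's PETs in Col-0, for all loops (grey) and the loops of the 8 genes (green, with 95% Wilson intervals and counts on the axis). In both, the percentage is highest among loops of 10 to 11 PETs (65.1% and 75.0%), and the interval of the green bar at 20 to 24 PETs (12.1 to 64.6) includes the grey value of 13.6%.

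The loops between a calmodulin-like gene and the calmodulin gene beside it were present in both genotypes. TCH2 encodes a sensor that acts in touch responses and flowering time, and its loop to CAM1, over 7.10 kb, had 45 PETs in Col-0 against 28 in *myc2*, for a ratio of 0.622 (0.374 to 1.02). CML23 is the closest relative of TCH2, and its loop to CAM4, over 4.48 kb, held 13 and 8 PETs, a ratio of 0.615 (0.221 to 1.60). The TCH3 promoter anchor looped to the anchor over CAM2, at 4.98 kb, with 66 PETs in Col-0 against 32 in *myc2*, for a ratio of 0.485 (0.308 to 0.750), and the gene-body anchor looped to it over 2.43 kb with 22 and 10 PETs. The loop of 66 PETs was the strongest of the 8 genes in both lists, and it stood at percentile 96.2 among Col-0 loops of similar span. By the same measure the TCH2 loop to CAM1 stood at percentile 92.5 and that of the TCH3 gene-body anchor at 84.8. The CML23 loop to CAM4 stood at only 12.1. The anchor over CAM2 also overlaps AT2G41120 and AT2G41130, a gene for a basic helix-loop-helix protein, so the loop of 66 PETs cannot be given to CAM2 alone. Nor can its other end be given to TCH3 alone, since the promoter anchor covers 1342 bp of the body of AT2G41090 and 93 bp of that of TCH3. The gene-body anchor of TCH3 overlaps the CAM2 interval by 663 bp, so by the counting rule it is an anchor of both genes. The intervals of these ratios hold the 0.432 of all shared loops.

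The order of anchors along the chromosome gives the setting of these loops. The 8 anchors form 15 pairs with the anchor next to them, of which 11 were joined by a loop in Col-0 and 8 in *myc2*, beside 64.3% and 56.3% of all neighbouring pairs. At 3 to 10 kb, the distance of CML23 from CAM4 and of TCH2 from CAM1, 87.3% of all neighbouring pairs were joined in Col-0 and 77.5% in *myc2*. At 1.5 to 3 kb, the distance of the TCH3 gene-body anchor from the anchor over CAM2, 15.1% and 12.4% were. The RefSeq product names of 8 of the 62 genes at the other end, or 12.9%, hold calmodulin, calcium, EF-hand, CBL or CDPK, beside 1.16% of all genes with an anchor: CAM1, CAM2, CAM4, the calmodulin-binding CAMBP25 and AT5G57580, the kinases CRK1 and CIPK21, and the lipid-binding AT5G37740. These words and the count were set after the partners were seen, and 3 of the 8 are the calmodulin genes next door. The 62 are all genes whose counting interval overlapped a partner anchor outside the 8 anchors, not only the gene of largest overlap.

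TCH2 had 7 loops in Col-0 and 6 in *myc2*, with 157 (133 to 184) and 80 (63.4 to 99.6) PETs. Beside CAM1, its strongest partner was the kinase gene AT5G37790, with 46 PETs in Col-0 and 21 in *myc2*. The loops to ALY4 (17 and 9), to the hydrolase gene AT5G37710 (15 and 8), to the DnaJ gene AT5G37750 (12 and 7) and to the small heat shock protein gene AT5G37670 (10 and 7) were also in both lists. The loop to AT5G37740, 12 PETs in Col-0, was not listed in *myc2*, and no *myc2* loop used that anchor. Over the 6 shared loops of TCH2 the ratio was 0.552 (0.415 to 0.730), an interval that holds 0.432 but lies above the 0.394 of strong loops. CML23 had 2 loops in Col-0 against 1 in *myc2*. The loop found in Col-0 only joined it to RGL1, a DELLA repressor of gibberellin signalling, with 11 PETs over 22.1 kb.

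TCH3, a calmodulin-like protein with repeated EF-hands, had 15 loops in Col-0 and 12 in *myc2*, with 297 (264 to 333) and 113 (93.1 to 136) PETs and a ratio of 0.428 (0.334 to 0.544) over the 9 shared loops. The promoter anchor also looped to AT2G41080, with 29 PETs in Col-0 and 13 in *myc2*, in an anchor that overlaps the bZIP gene EEL, and the gene-body anchor looped to the same place with 37 and 11 PETs. CRK1, a kinase related to calcium-dependent protein kinases, looped to the promoter anchor with 17 and 9 PETs and to the gene-body anchor with 10 PETs in Col-0 only. CAMBP25, which binds calmodulin, looped to the promoter anchor with 14 PETs in Col-0 only and to the gene-body anchor with 10 and 5. For both partners 1 of the 2 loops was thus in both lists. The loop between the 2 anchors of TCH3 held 12 PETs in Col-0 and was not listed in *myc2*. Loops of the promoter anchor to AT2G41160 (11 PETs) and AT2G41170 (10 PETs) were in Col-0 only, and its loops to MYBC1 and AT2G41040, with 5 PETs each, in *myc2* only. The gene-body anchor looped to AT2G41040 with 11 PETs in Col-0 only, so AT2G41040 was a partner of TCH3 in both genotypes. The connecting genes, counted as distinct genes with the most overlap at the partner anchors, numbered 10 in Col-0 and 8 in *myc2*.

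CML38 and CML39 had 8 loops in each genotype, 7 of them shared, with 190 (164 to 219) PETs in Col-0 and 87 (69.7 to 107) in *myc2* and a ratio of 0.461 (0.347 to 0.608) over the shared loops. The tag ratio above the median of all anchors was thus not accompanied by a PET ratio whose interval left out that of all shared loops. Their strongest loops reached AT1G76630 (39 and 21 PETs), AT1G76660 (34 and 24) and AT1G76670 (34 and 10), on either side of the anchor. The loop to the anchor of OPR1 and OPR2, relatives of the reductase that makes the jasmonate precursor, held 23 PETs in Col-0 over 10.7 kb and was not listed in *myc2*, where 13.6% of all loops of 20 to 24 PETs were not. In turn the loop to AT1G76600, over 19.4 kb, held 10 PETs in *myc2* and was not listed in Col-0. Of all loops that only *myc2* had, 2.29% held at least 10 PETs, and of the 5 of the 8 genes 1 did.

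CML37 showed the largest difference in listed loops. It is a calmodulin-like protein that promotes jasmonate accumulation after herbivory. It had 8 loops in Col-0 and 2 in *myc2*, with 95 (76.9 to 116) and 20 (12.2 to 30.9) PETs, and its connecting genes numbered 8 and 2. The loops in both lists joined it to the kelch repeat gene AT5G42360, with 19 PETs in Col-0 against 11 in *myc2*, and to the pentatricopeptide repeat gene AT5G42310, with 12 and 9. The 6 others held 10 to 12 PETs in Col-0: VAR1, which encodes a thylakoid FtsH protease (12), UBL5, a ubiquitin-like protein (11), AT5G42330 (11), AT5G42320 (10), AT5G42420 (10) and AT5G42440 (10). All 6 thus lay within 2 PETs of the Col-0 minimum, and the shares of all loops in their PET classes give 4.54 unlisted loops for CML37 beside the 6 observed. Over the 2 loops in both lists the PET ratio was 0.645 (0.349 to 1.17). At a Col-0 minimum of 13 PETs, set to match the 5 of *myc2* at the PET ratio of strong loops, CML37 had 1 connecting gene in Col-0 against 2 in *myc2*. Its tag ratio was 1.02-fold the median. CML37 was not looped to either anchor next to it, at 1.67 and 2.56 kb, where 15.1% of neighbouring anchors 1.5 to 3 kb apart were joined in Col-0. Among loops that joined other anchors within 40 kb of CML37, 13 of 34 Col-0 loops were not listed in *myc2*, or 38.2% (23.9 to 55.0), beside 75.0% (40.9 to 92.9) of its own. The own share was also above that of the neighbouring loops for CML23 (50.0% beside 42.9%), TCH3 (6 of 15 loops beside 29.8%) and TCH4 (45.5% beside 28.6%). It was below for CML38/CML39 (12.5% beside 32.4%), TCH2 (14.3% beside 33.3%) and CML42 (0.0% beside 33.3%). For all 7 the intervals of both shares overlap. The neighbouring loops were not matched to the own loops by PETs, with which listing in *myc2* went.

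TCH4 had 11 loops in Col-0 and 7 in *myc2*, with 184 (158 to 213) and 47 (34.5 to 62.5) PETs. Its ratio over the 6 shared loops, 0.385 (0.263 to 0.555), was the lowest of the 8 genes, and the interval holds the 0.432 of all shared loops. Among the loops in both lists were those to AT5G57480 (21 PETs in Col-0 and 11 in *myc2*), AT5G57460 (20 and 5), the calmodulin-binding AT5G57580 (23 and 7, with a second anchor at 12 and 7) and BIO1, a biotin biosynthesis gene (14 and 5). Among those in Col-0 only were the loops to both anchors next to it: VDAC4, a mitochondrial anion channel gene, with 21 PETs over 21.6 kb, and AT5G57565, with 22 PETs over 3.57 kb. The others joined TCH4 to AT5G57567 (12), AT5G57610 (10) and CIPK21, a kinase regulated by calcineurin B-like calcium sensors (10), and the loop to GS1, with 5 PETs, was in *myc2* only. Connecting genes numbered 10 and 6. The shares of all loops in the same PET classes give 3.76 unlisted loops, beside the 5 observed. For 4 of these 5, those to AT5G57565, AT5G57567, AT5G57610 and CIPK21, the partner anchor was used by no *myc2* loop at all, so its tags in *myc2* are not listed. Over the 8 genes this held for 5 of the 20 loops found in Col-0 only, where it held for 8.52% of all such loops.

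CML42, which acts in trichome branching and in defence against herbivores, had the same 2 loops in both lists, to AT4G20760 (24 PETs in Col-0 against 15 in *myc2*) and to an anchor over AT4G20835 and its berberine-bridge-enzyme-like neighbours (10 and 6). CML37 and CML42 act in opposite directions in herbivore defence, and their PET ratios over shared loops, 0.645 and 0.618, each lay within the interval of the other.

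**Figure D4:**
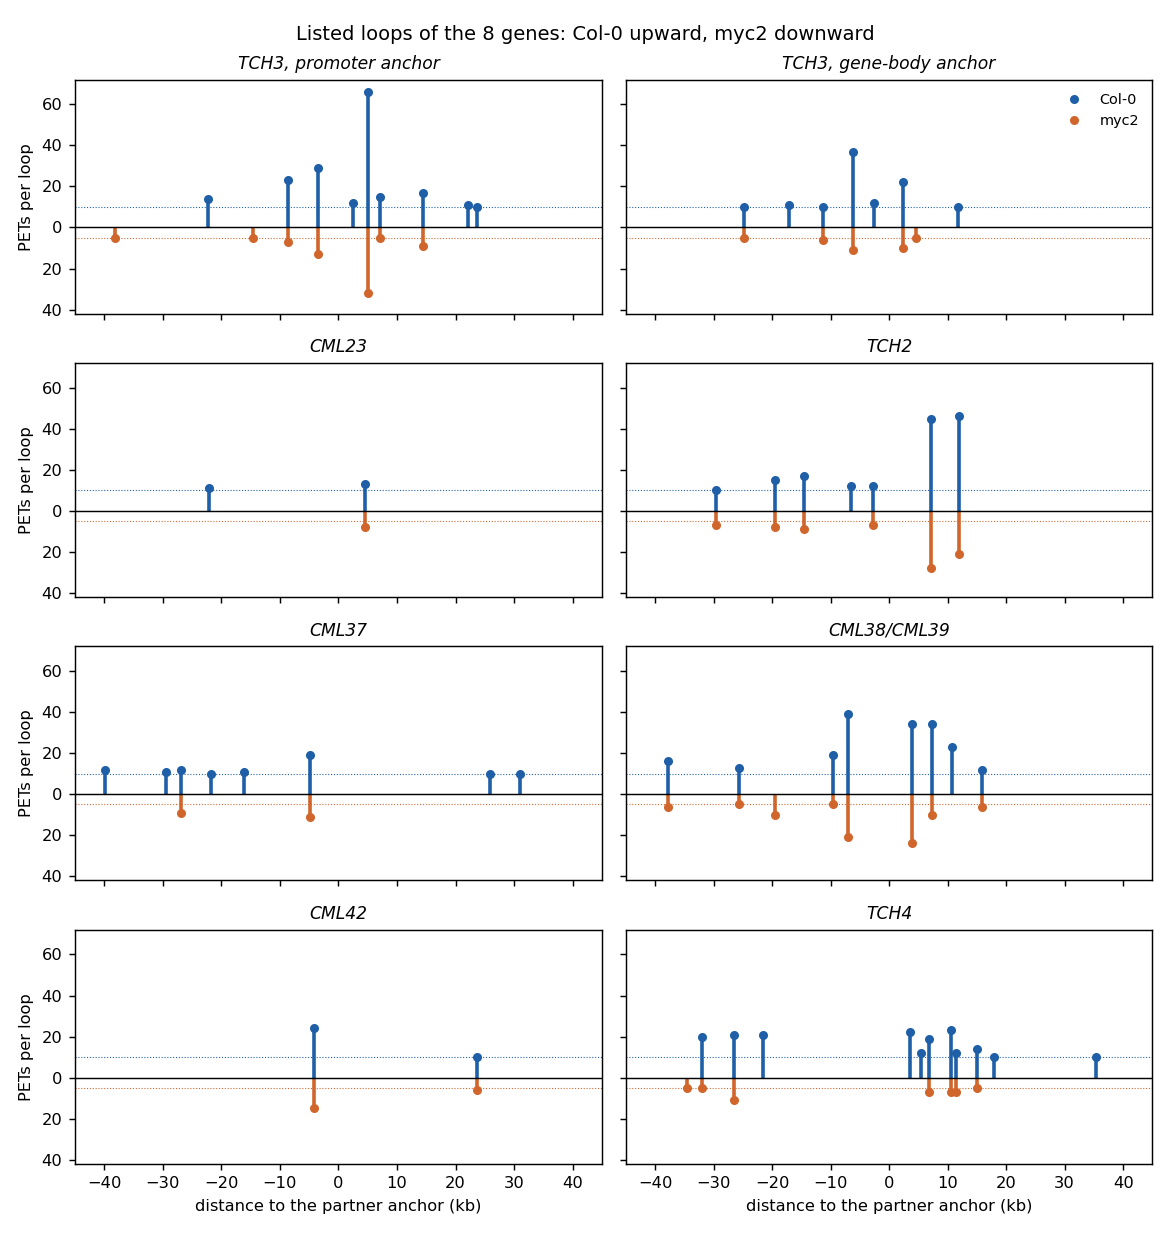
PETs of every listed loop of the 8 genes against the distance to the partner anchor in kb, with Col-0 upward and *myc2* downward, and dotted lines at the smallest PET count of each list (10 and 5). CML37 has 2 of its 8 Col-0 stems in *myc2*, CML38/CML39 has 7 of 8, and the strongest stems, of TCH3 (66 and 32 PETs) and TCH2 (46 and 45 in Col-0), stand on both sides.

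A difference of at least 3 connecting genes was the smallest one counted. Of the 8 genes 2 were lower by this measure in *myc2*, CML37 and TCH4, and 0 were higher, where 10.1% of all genes with a connecting gene were lower and 2.69% higher. The median change was -1 over the 8 genes and 0 over all genes. These counts depend on the PET minimum. At 10 PETs in both genotypes 6 of the 8 were lower and 0 higher, where 67.2% and 0.0% of all genes were. With the Col-0 minimum at 13 PETs 0 of the 8 were lower or higher, where 0.959% of all genes were lower and 13.7% higher. With the gene region covering at least 50% of the anchor 2 of the 7 genes left were lower and 0 higher, where 10.2% and 2.39% of all genes were.

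The relatives of the 8 genes were read in the same way. Over all genes 17797 of 27444 had an anchor, and of those with a connecting gene 10.1% were lower by at least 3 and 2.69% higher. All 7 calmodulin genes had an anchor and 0 of them differed by 3 connecting genes, with a median change of 0. CAM2 among them shares the gene-body anchor of TCH3, and AT2G41090, among the other calmodulin-like genes, shares its promoter anchor. Of 43 other calmodulin-like genes 24 had an anchor, 2 were lower and 1 higher: AT1G12310 had 8 connecting genes in Col-0 against 4 in *myc2*, AT1G21550 had 3 and 0, and AT5G39670 had 1 and 6. Of 32 other xyloglucan endotransglucosylase genes 17 had an anchor and 3 were lower, XTH7 (4 and 1), XTH24 (5 and 2) and XTH25, which shares the anchor of TCH4. Of 17 genes of touch, wound and calcium signalling 16 had an anchor, the deadenylase gene CAF1b was lower (8 and 4) and the kinase gene MPK3 higher (6 and 9). In all 4 lists 0 genes passed 1.5-fold in tag ratio, and the median tag ratio stood at 1.04, 1.01, 1.05 and 1.00 times that of all anchors, in the order given.

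**Figure D5:**
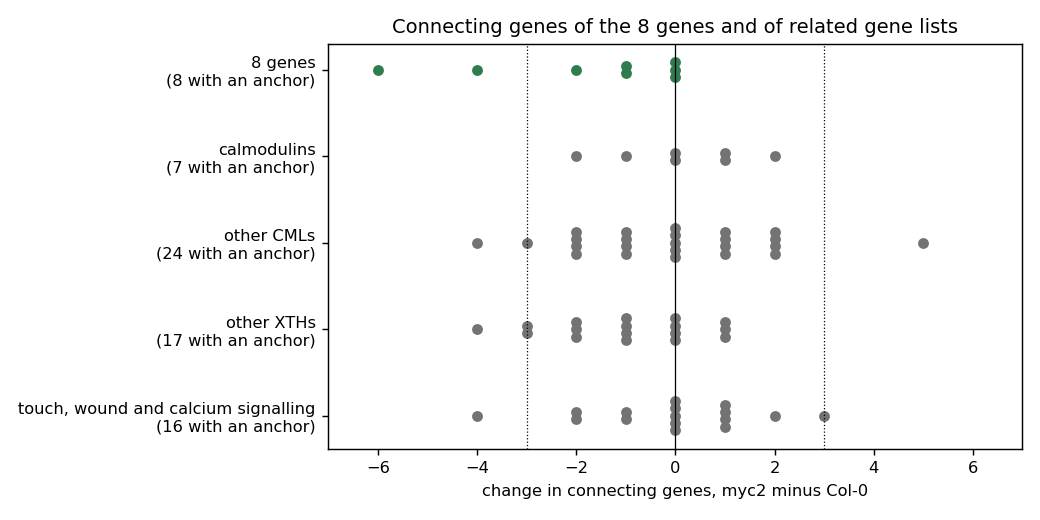
Change in the number of connecting genes, *myc2* minus Col-0, for each gene with an anchor in the 8 genes and in 4 lists of related genes, with 1 point per gene and dotted lines at 3 fewer and 3 more. CML37 at -6 and TCH4 at -4 are the 2 lowest of the 8 genes, CML38 and CML39 share an anchor and stand together at 0, and the point at 5 among the other calmodulin-like genes is AT5G39670.

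Other genes shared partners with them. Likeness was measured as the Jaccard index of partner anchors, both genotypes pooled, over the 15694 anchors. AT1G76660 and AT1G76670 each shared 7 of 10 partners with CML38 and CML39 (0.700). AT2G41130 shared 6 of 9 (0.667) and AT2G41080 8 of 13 (0.615) with TCH3, AT5G37710 4 of 6 (0.667) and ALY4 3 of 6 (0.500) with TCH2, and SPP, which lies head to head with CML37, 7 of 12 (0.583) with it, followed by UBL5 with 4 of 7 (0.571). For TCH4 the most similar gene, AT5G57580, shared 4 of 12 (0.333). For CML23 the most similar were ETR1, an ethylene receptor, with 2 of 4 and AT1G66430 with 1 of 2, and for CML42 AT4G20760 and AT4G20820 with 1 of 2 each. All of these genes lie near the gene they resemble, and genes close together can reach the same partners.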

How the data were processed

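H3K4me3 ChIA-PET libraries of Col-0 and *myc2* shoots, 2 biological replicates each, were processed by the authors with ChIA-PET Tool V3 on TAIR10 (aligner not given in the sources used here). Duplicates were removed, anchors were H3K4me3 ChIP-seq peaks merged over the genotypes, replicates were combined, and loops with an FDR under 0.05 were kept. The deposited lists, 1 per genotype, hold raw counts of PETs per loop and of tags per anchor. A p-value with its FDR, both from the authors' tool, and the deposited −log10 of each served only for a stricter FDR of 0.001. Whether anchor starts count from 0 or 1 is not stated.

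Gene models, names and sequences came from RefSeq TAIR10.1, whose nuclear chromosomes are those of TAIR10. A partner gene was the gene with the largest overlap, covering at least 50% of the anchor. The count of calcium words instead took every gene that overlapped a partner anchor outside the 8 anchors. A loop had a counterpart when both anchors overlapped by at least 1 bp. Intervals at 95% are exact Poisson for counts, exact binomial for ratios and Wilson for shares. They cover counting error only, since the replicates were combined into 1 list per genotype. PETs carry no molecular identifiers. Members and lists were chosen with earlier results of these data known. Named genes were the 8 genes, their loop partners, the 2 most similar genes for each by Jaccard index, and list members that differed by at least 3 connecting genes or 1.5-fold in tag ratio. A partner gene of TCH4 is not reported here. The comparison with loops within 40 kb, the count of calcium words and the motif search were chosen after values were seen. The alternatives changed the gene region, the PET minimum, the FDR, the counterpart and partner rules, the reference for ratios and the fold. The scripts were tested on simulated data and used Python 3.11.15, pandas 2.3.3 and scipy 1.17.1.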

Additional observations from a re-analysis of the deposited data

How the results depend on the processing

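The PET minimum decided the counts of loops. At 10 PETs in both genotypes the 8 genes had 13 loops in *myc2*, 41 Col-0 loops without a counterpart and 1 *myc2* loop without one. With the Col-0 minimum raised to 13 PETs they had 29 loops in Col-0, 4 without a counterpart in *myc2* and 13 *myc2* loops without one in Col-0. CML37 turned from 6 fewer connecting genes to 1 more (1 in Col-0 and 2 in *myc2*), and TCH4 had 1 fewer. At 10 PETs in both, 4 calmodulins, 14 other calmodulin-like genes, 9 other XTH genes and 14 touch, wound and calcium genes had at least 3 fewer connecting genes in *myc2*, where 67.2% of all genes had, and 0 of the other calmodulin-like genes and 0 of the touch, wound and calcium genes had 3 more. With the raised Col-0 minimum, 0 genes of these last 3 lists had 3 fewer, while 1 calmodulin, 4 other calmodulin-like genes and 5 touch, wound and calcium genes had 3 more, where 0.959% of all genes had 3 fewer and 13.7% had 3 more. With the gene region covering at least 50% of the anchor, 1 other calmodulin-like gene had 3 fewer, where 10.2% of all genes had, and with the tag call set at 25% above the median 1 anchor of the 8 was higher in tags. Of the results that answer a comparison, 37 values under an alternative stayed within the limits set and 20 moved. No paired analysis was possible because the replicates were combined before loops were called and each genotype has 1 list. The lower depth of *myc2* limits what can be said of loops near the minimum.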
